A study of Mus musculus with 6 samples.

Results

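The EGF receptor family and the ligands and inhibitor that act on it were examined in cultured mouse intestinal stem cells given INT-777 or its solvent. The set was fixed by name as 10 genes: the receptors Egfr, Erbb2 and Erbb3, the ligands Areg, Ereg, Btc, Hbegf, Tgfa and Epgn, and the inhibitor Errfi1. All 10 are among the 54838 genes counted, and all 10 passed the filter on low counts that left 15998 genes to test. The study asked which genes respond when TGR5, a bile acid receptor at the cell surface that raises cyclic AMP, is stimulated, and its agonist INT-777 is a bile acid derivative made by synthesis. Mice of the line B6.129P2-Lgr5tm1(cre/ERT2)Cle/J carry green fluorescent protein and a tamoxifen-inducible Cre in the Lgr5 gene, which marks crypt base stem cells. On each of 3 days, cells with high fluorescence were sorted from the pooled intestines of 4 mice, about 200000 cells were embedded in Matrigel at 20000 per 10 µL drop, and 4 h later they received 30 µM INT-777 or DMSO. Cells of both groups grew in crypt medium with the Notch ligand peptide JAG-1 (1 µM) and the GSK3 inhibitor CHIR99021 (3 µM), and the labels do not say whether that medium held EGF. RNA was taken after 12 h by the sample labels and after 16 h by the design text. The labels do not give the age of the mice. There were 3 DMSO and 3 INT-777 libraries, 1 of each per day.

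The ErbB receptors are tyrosine kinases that work in pairs. Ligand binding lets EGFR or ERBB3 pair with another family member. ERBB2 binds no known ligand and serves as a partner, and ERBB3 has little kinase activity of its own and passes its signal mainly to PI3K. Amphiregulin (Areg) and TGF-alpha (Tgfa) bind EGFR, whereas epiregulin (Ereg), betacellulin (Btc) and HB-EGF (Hbegf) also bind ERBB4. The ligands are made as membrane proteins and are released by metalloproteases such as ADAM17 and ADAM10. In the crypt, EGF signalling drives stem cell division, and the inhibitors LRIG1 and ERRFI1 (MIG6) hold it back.

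Each library held 45682340 to 47905087 read pairs assigned to genes, so that 1 CPM (1 pair per 1000000 of the scaled library) stood for 46.1 to 47.7 pairs. The libraries of day 3 stood apart. On the leading principal component (52.1% of variance) they lay at 47.8 (DMSO) and 21.1 (INT-777), and the other libraries between -26.7 and -8.02. Days 1 and 2 were close to identical, with a biological coefficient of variation of 2.00% between their DMSO libraries, where DMSO of day 3 differed from DMSO of day 1 by 19.4%. They were kept as replicates of their own because the labels place them on different days; the counts alone do not tell separate cultures from repeat libraries of 1 RNA, and if they were repeats the p-values would be too small. Lgr5 was present at 53.7 to 74.5 CPM and the epithelial marker Epcam at 804 to 909 CPM in the 6 libraries. Paneth cell markers (7 genes) summed to 2342 to 4325 CPM, and stem cell markers (8 genes, Lgr5 among them) to 1703 to 2540 CPM. Such sums over different genes do not give the share of each cell type. The summed level of 8 goblet cell markers was 2901 to 5661 CPM on days 1 and 2, and 28230 (DMSO) and 12450 (INT-777) on day 3. That of 14 immune cell markers was 3.56 to 4.51 CPM on days 1 and 2 and 8.86 and 9.29 CPM on day 3, and S100a8 among them had no read pair in any library. Ptprc, which encodes the leukocyte surface protein CD45, had 0 to 4 read pairs in each library of days 1 and 2, and 70 (DMSO) and 61 (INT-777) on day 3. In 12 markers of stroma and endothelium the sum was 1.59 to 4.72 CPM.

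Transcripts of the family spanned more than 3 orders of magnitude per length of exon. Areg, which encodes amphiregulin, was the most abundant member, with 174.8 ± 4.85 FPKM (CPM per kb of exon, mean and SD, n = 3) in the DMSO libraries and 158.5 ± 25.6 with INT-777. It lay at the 98.8th percentile of all tested genes in DMSO, and its share of the 6 ligands' summed FPKM was 85.8 ± 0.658% with DMSO and 82.7 ± 2.09% with INT-777. Epgn, which encodes epigen, was close to undetected, with 8 to 12 read pairs per library and 0.116 ± 0.00737 FPKM in DMSO. Between these lay Errfi1 (24.1 ± 3.12 FPKM in DMSO), Erbb2 (19.3 ± 0.937), Erbb3 (15.0 ± 2.56), Btc (9.10 ± 1.01), Ereg (8.51 ± 0.515), Tgfa (6.51 ± 0.368), Hbegf (4.71 ± 0.915) and Egfr (4.49 ± 0.198). Of the neighbours in that order, Areg lay above Errfi1 and Egfr above Epgn in every DMSO library with no overlap, and so did Erbb2 above Erbb3 (18.4 to 20.2 against 13.2 to 17.9), Erbb3 above Btc, Ereg above Tgfa and Tgfa above Hbegf. The DMSO ranges of Btc (7.95 to 9.81) and Ereg (7.91 to 8.83) overlapped, as did those of Hbegf (3.68 to 5.42) and Egfr (4.33 to 4.71). Errfi1 lay above Erbb2 in all 3 DMSO libraries, by a small margin (lowest 20.6 against highest 20.2). When the length of the longest coding transcript was used instead of all exons, Hbegf stood at 9.59 and Ereg at 8.51 FPKM. Hbegf thus moved from place 8 to place 6, and the order of Hbegf, Tgfa and Ereg is therefore uncertain. Btc stood at 14.3 and Tgfa at 9.34 by that length, with Areg unchanged at 175 FPKM. The share of Areg in DMSO given above would therefore be lower by that length. Btc came close to Erbb3, at 15.0, so the order of Erbb3 and Btc is uncertain too. Egfr stood at 4.98, well below Hbegf. Ranges over the libraries were not worked out by that length, so the overlaps and gaps given above hold for the length of all exons only.

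**Figure D1:**
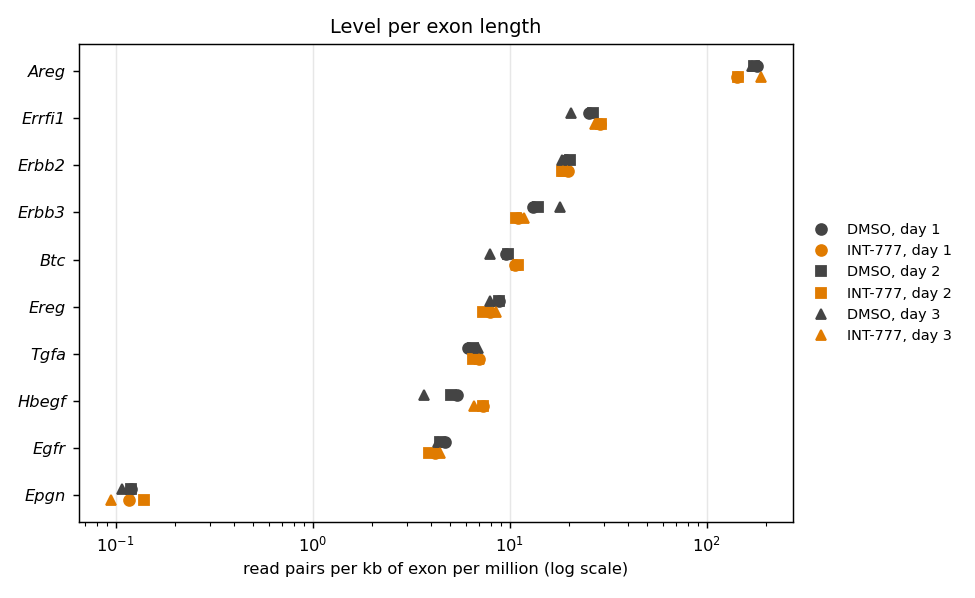
Level of each member per exon length (CPM per kb of exon, log axis) in the 3 DMSO (dark grey) and 3 INT-777 (orange) libraries, with symbols for the days. Areg lies between 143 and 188 in all libraries, Epgn between 0.0947 and 0.139, and the other 8 between 3.68 and 29.1.

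Epgn, Ereg, Areg and Btc adjoin each other on chromosome 5, within 375.5 kb (GRCm38), and no protein-coding gene other than these lies between Epgn and Btc. Epgn occupies 91027464 to 91035215, Ereg 91074622 to 91093646 and Areg 91139599 to 91148432, all on the plus strand, and Btc occupies 91357261 to 91402994 on the minus strand. Despite lying 39.4 and 45.95 kb apart in turn, Epgn, Ereg and Areg differed widely in level. The Areg to Epgn ratio per length was 1040 in the library where it was lowest and 1980 in the library where it was highest, with only 8 to 12 read pairs of Epgn behind it. Ereg overlaps the antisense gene Gm19610 over 3.42% of its exon length, and reads there cannot be assigned without strand. The antisense gene had 77 to 116 read pairs per library, against 1434 to 1678 assigned to Ereg.

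The promoters of Areg and Errfi1, the gene of the receptor inhibitor MIG6, share the palindromic cyclic AMP response element TGACGTCA, a site that CREB binds. They are shown because TGR5 signals through cyclic AMP. The 250 bases before the RefSeq start (GRCm38.p6) are given 5′ to 3′ on the strand of the gene, with the element in capitals. Btc, whose window does not hold these exact letters, is given for comparison. Shorter or imperfect forms of the element were not searched. Areg is at chr5:91139349-91139598 (plus strand), Errfi1 at chr4:150854820-150855069 (plus strand, the second of 2 listed starts) and Btc at chr5:91402995-91403244 (minus strand).
Areg: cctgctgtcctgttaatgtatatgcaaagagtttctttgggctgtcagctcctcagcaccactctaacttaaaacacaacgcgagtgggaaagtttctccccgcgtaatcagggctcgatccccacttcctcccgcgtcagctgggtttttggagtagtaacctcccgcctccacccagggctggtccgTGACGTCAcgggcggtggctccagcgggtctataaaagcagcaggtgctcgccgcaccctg
Errfi1: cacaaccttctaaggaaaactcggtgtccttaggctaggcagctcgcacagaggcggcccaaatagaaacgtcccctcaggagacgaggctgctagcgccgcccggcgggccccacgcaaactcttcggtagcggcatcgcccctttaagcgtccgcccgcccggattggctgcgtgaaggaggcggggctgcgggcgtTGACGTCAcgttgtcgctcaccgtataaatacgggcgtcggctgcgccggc
Btc: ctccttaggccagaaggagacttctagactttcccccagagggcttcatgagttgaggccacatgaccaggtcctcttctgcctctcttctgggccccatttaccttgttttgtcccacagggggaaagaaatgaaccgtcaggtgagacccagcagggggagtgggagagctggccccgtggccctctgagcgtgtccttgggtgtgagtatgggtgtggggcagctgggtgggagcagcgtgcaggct
The element begins 61 bases before the start of Areg and 51 bases before that of Errfi1. Windows were listed for 7 of the 10 members (8 windows, without Erbb3, Ereg and Hbegf), and the other 6 windows do not hold these letters. Of 32851 windows of this length listed for mouse genes, 1.55% hold the element. The AP-1 motif TGACTCA, searched on both strands, was in 4.46% of all windows and the EGR1 motif GCGTGGGCG in 0.536%, and neither was in a member's window. A match of TGACTCA cannot be a match of TGACGTCA, so the counts of these motifs do not include each other.

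Without the day as a term in the model, none of the 10 members passed the test of INT-777 against DMSO (edgeR quasi-likelihood, two-sided, adjusted p under 0.05), a test that called 1.45% of the 15998 genes, 0.688% higher and 0.763% lower. At an unadjusted p under 0.05, which 16.4% of all tested genes met in that fit, there were 4 members, Hbegf, Btc and Errfi1 with positive and Erbb3 with negative log2 changes. The same 4 passed when the day was added as a block, which the labels allow because a replicate number marks a shared day: Hbegf, Btc and Errfi1 were higher and Erbb3 lower. That blocked fit called 21.3% of all genes, 11.1% higher and 10.3% lower. DESeq2 without the block called Hbegf higher and Erbb3 lower, where it called 2.31% of all genes higher and 2.68% lower. The median log2 change of the 10 was -0.0062, beside 0.0031 for all tested genes. For these 4 genes the INT-777 and DMSO ranges did not overlap, as for 24.5% of all tested genes. The sign of the change was the same on all 3 days for the same 4, against 52% of all genes.

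**Figure D2:**
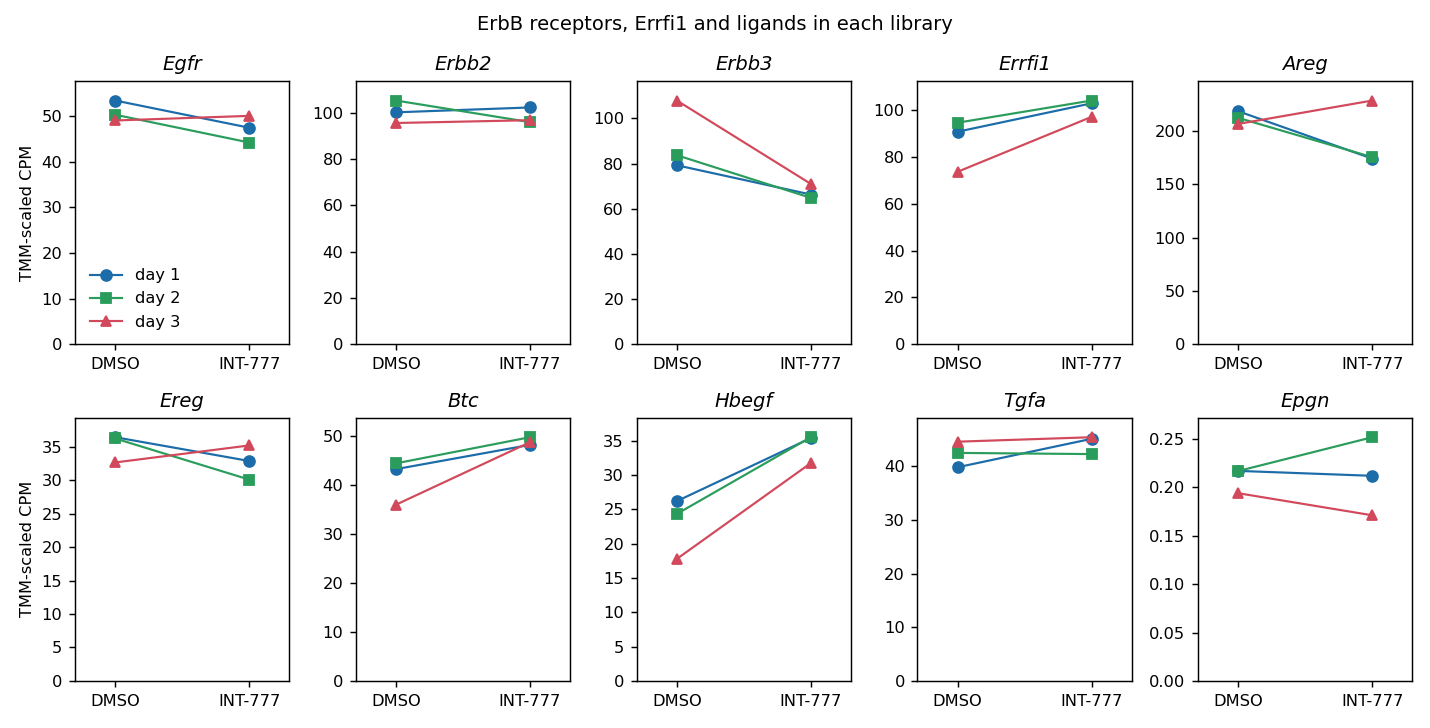
TMM-scaled CPM of each member in each library, with lines joining the DMSO and INT-777 library of a day and every axis starting at 0. Hbegf, Btc and Errfi1 rise and Erbb3 falls along all 3 lines, and for Areg, Ereg and Egfr the lines of days 1 and 2 slope down and that of day 3 up.

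Hbegf had the largest difference among the members. HB-EGF is a heparin-binding ligand of EGFR and ERBB4 whose transcript is induced by growth factors and wounding in many epithelia. Its gene lies on chromosome 18 (36504927 to 36515805, minus strand). The DMSO libraries of days 1, 2 and 3 had 26.2, 24.4 and 17.8 CPM, and the INT-777 libraries 35.4, 35.5 and 31.8. The lowest INT-777 library lay above the highest DMSO library, and day 3 was the lowest of each group. Means were 22.8 ± 4.43 CPM with DMSO and 34.2 ± 2.15 with INT-777 (SD, n = 3), 1.503-fold higher. The log2 change was 0.59 ± 0.14 (SE, edgeR adjusted p = 0.113) without the day block and 0.60 ± 0.07 with it (edgeR adjusted p = 3.29e-05). Within days the log2 differences were 0.43, 0.54 and 0.83. Without DMSO replicate 3 alone the call passed without the block too, at a smaller log2 change of 0.43 (edgeR adjusted p = 0.0464). In bulk RNA, a change in the number of cells that make a transcript and a change in RNA per cell cannot be told apart, for this and every gene below.

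Btc, which encodes betacellulin, was the other ligand that rose with the block. The DMSO values of days 1, 2 and 3 were 43.2, 44.3 and 35.9 CPM and the INT-777 values 48.1, 49.7 and 48.6. The INT-777 libraries were nearly level with each other, and the DMSO library of day 3 was lower than those of the other days. Means were 41.1 ± 4.56 and 48.8 ± 0.790 CPM (SD, n = 3), 1.19-fold higher with INT-777. The log2 change was 0.25 ± 0.08 (edgeR adjusted p = 0.21) without the block and 0.25 ± 0.06 with it (edgeR adjusted p = 0.00723). On days 1, 2 and 3 the log2 differences were 0.16, 0.16 and 0.44.

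Areg, the main ligand transcript, did not pass in either fit. Amphiregulin is a low-affinity EGFR ligand that is linked to repair of the gut epithelium. The DMSO libraries had 218, 212 and 207 CPM on days 1, 2 and 3, and the INT-777 libraries 174, 175 and 228.5. On days 1 and 2 the INT-777 library was the lower of the pair, by log2 differences of -0.33 and -0.27, and on day 3 it was the higher, by 0.14. The log2 change over all libraries was -0.14 ± 0.11 (edgeR adjusted p = 0.553), and -0.15 ± 0.10 with the block (edgeR adjusted p = 0.345). Without both libraries of day 3 it was -0.31 and passed (edgeR adjusted p = 7.34e-10), a fit whose replicates are the closely similar days 1 and 2. That fit called 2225 genes higher and 2067 lower. Whether day 3 differs from the other days in the effect of INT-777 on Areg was not tested.

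Ereg encodes epiregulin, an EGFR and ERBB4 ligand, and had the same pattern at a lower level. It had 36.4, 36.2 and 32.7 CPM with DMSO on days 1, 2 and 3, and 32.9, 30.1 and 35.2 with INT-777. The groups overlapped, and the day 3 pair differed in the opposite direction from the other pairs. Its log2 change was -0.10 ± 0.08 (edgeR adjusted p = 0.552), and -0.10 ± 0.07 with the block (edgeR adjusted p = 0.315). It was -0.21 without day 3 (edgeR adjusted p = 0.00166), again in the fit on the closely similar days 1 and 2. In that fit 2225 genes were called higher and 2067 lower. Tgfa, the gene of TGF-alpha, a high-affinity EGFR ligand, ranged from 39.8 to 44.6 CPM with DMSO and from 42.3 to 45.4 with INT-777. Its groups overlapped and the log2 difference was 0.07 ± 0.06 (edgeR adjusted p = 0.648). For Epgn the log2 change was 0.02 ± 0.34 (edgeR adjusted p = 0.986), and 8 to 12 read pairs per library could not show a change of the size seen in Hbegf.

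Among the receptors, Erbb3 had the largest difference. It lies on chromosome 10 (128567523 to 128589652, minus strand). The DMSO libraries of days 1, 2 and 3 had 79.2, 83.7 and 107.9 CPM and the INT-777 libraries 66.3, 64.8 and 71.0. All INT-777 libraries lay below all DMSO libraries, and the DMSO library of day 3 was the highest of the 6. Means were 90.3 ± 15.4 CPM with DMSO and 67.4 ± 3.243 with INT-777 (SD, n = 3), 1.34-fold lower. The log2 change was -0.42 ± 0.12 (edgeR adjusted p = 0.147) without the block and -0.41 ± 0.06 with it (edgeR adjusted p = 0.000186). Within days 1, 2 and 3 the log2 differences were -0.26, -0.37 and -0.60.

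Egfr (chromosome 11, 16752203 to 16918158) had 53.4, 50.2 and 49.0 CPM with DMSO on days 1, 2 and 3, and 47.4, 44.2 and 49.99 with INT-777. The groups overlapped through day 3, where INT-777 was higher by 0.03 on the log2 scale. The log2 change was -0.11 ± 0.06 (edgeR adjusted p = 0.449), and -0.11 ± 0.05 with the block (edgeR adjusted p = 0.175). Without both libraries of day 3 it was -0.18 and passed (edgeR adjusted p = 0.00226). That fit rests on the closely similar days 1 and 2, and it called 2225 genes higher and 2067 lower. Erbb2 (chromosome 11, 98412470 to 98437716), the partner receptor, was close to constant, at 95.7 to 105.4 CPM with DMSO and 96.1 to 102.4 with INT-777. Its log2 change was -0.03 ± 0.06 (edgeR adjusted p = 0.836). Erbb2 exceeded Egfr per length in every library, 4.09- to 4.73-fold. The ratio of Erbb2 to Erbb3 per length was 1.46, 1.45 and 1.02 with DMSO on days 1, 2 and 3, and 1.78, 1.71 and 1.58 with INT-777, so that its ranges did not overlap.

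Errfi1 encodes MIG6, a cytoplasmic protein that EGFR signalling induces and that binds and inhibits the receptor kinases. It lies on chromosome 4 (150853919 to 150868892, plus strand). It had 90.8, 94.6 and 73.7 CPM with DMSO on days 1, 2 and 3, and 102.9, 104.1 and 97.1 with INT-777. The INT-777 libraries all lay above the DMSO libraries, the nearest 2 being 97.1 and 94.6, and the DMSO library of day 3 was the lowest. Means were 86.4 ± 11.2 and 101.4 ± 3.74 CPM (SD, n = 3), 1.17-fold higher with INT-777. The log2 change was 0.23 ± 0.09 (edgeR adjusted p = 0.277) without the block and 0.24 ± 0.05 with it (edgeR adjusted p = 0.00369). By day the log2 differences were 0.18, 0.14 and 0.40. Areg, whose promoter shown above holds the same cyclic AMP response element, had the values -0.33, -0.27 and 0.14. Whether the element plays a part in the values of either gene was not tested.

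**Figure D3:**
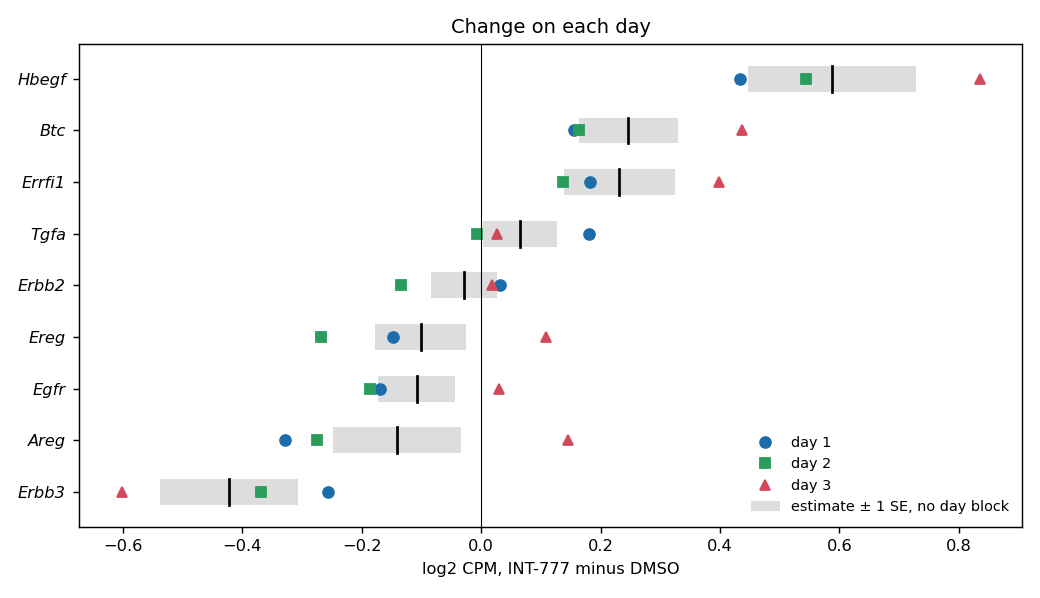
Difference of INT-777 minus DMSO in log2 CPM on each day (symbols) for the members other than Epgn, with the estimate without the day block (black line) and 1 SE on each side (grey). Hbegf, Btc and Errfi1 lie right of 0 and Erbb3 left of 0 on all days, with day 3 farthest from 0 in each of these 4, while Areg, Ereg and Egfr have day 3 on the other side of 0 from days 1 and 2.

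The remaining receptor and ligands of the family were low. Erbb4 and Nrg3 had no read pair in any library, and a count of 0 allows up to 3 read pairs, 0.063 to 0.0651 CPM per library, from counting error alone. Nrg1 had 1 to 15 read pairs per library, most of them on day 3 (11 with DMSO and 15 with INT-777). Nrg2 had 14, 11 and 9 with DMSO on days 1, 2 and 3, and 5, 3 and 2 with INT-777. Neither passed the filter on low counts, so neither was tested. Egf, which Paneth cells make in the crypt, was tested and had 2.04 ± 0.1499 CPM with DMSO and 1.63 ± 0.276 with INT-777 (log2 -0.32 ± 0.18, edgeR adjusted p = 0.407). Nrg4, a ligand of ERBB4, had 3.11 ± 0.176 and 3.33 ± 0.377 CPM (log2 0.10 ± 0.14, edgeR adjusted p = 0.78). Egf and Nrg4 were the 2 of these 6 that could be tested, and neither passed with or without the block.

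Genes that shed or export the ligands were split between small positive and negative changes, 5 of each. Of 10 tested of 11, none passed without the block and 2 were lower with it, against 10.3% of all genes in that direction, and the list median was -0.004. Adam10, a sheddase for betacellulin, had 181 to 199.6 CPM with DMSO and 167.8 to 172.8 with INT-777 (log2 -0.17 ± 0.05, edgeR adjusted p = 0.184, and 0.00765 with the block). Timp3, a metalloprotease inhibitor, had 5.65 ± 1.13 and 3.70 ± 1.57 CPM (log2 -0.61 ± 0.30, edgeR adjusted p = 0.362, and 0.0018 with the block). Adam9 did not pass in either fit (log2 -0.12 ± 0.07, edgeR adjusted p = 0.444). Adam17, the main sheddase of amphiregulin, added after its values were seen, had 57.5 ± 3.12 and 58.5 ± 1.77 CPM.

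Brakes on the receptors and genes of their turnover moved both ways. Of 20 tested of 21, none passed without the block, and with it 5 were higher and 4 lower, where 11.1% and 10.3% of all genes were. The median was 0.0064 in the fit without it. The members of smallest p were Socs5, a suppressor that promotes EGFR degradation (32.8 ± 2.66 and 41.4 ± 1.84 CPM, log2 0.34 ± 0.07, edgeR adjusted p = 0.0812), and Socs3, a suppressor of cytokine receptors (10.6 ± 1.38 and 15.0 ± 0.720 CPM, log2 0.50 ± 0.11, edgeR adjusted p = 0.0815). Ptprj, a receptor phosphatase that acts on EGFR, came next, at 83.7 ± 11.5 and 60.4 ± 6.99 CPM (log2 -0.47 ± 0.12, edgeR adjusted p = 0.123). All 3 passed with the block (edgeR adjusted p = 0.00062, 0.000544 and 3.17e-06 in turn). Lrig1, added after its values were seen, had 193 ± 3.17 and 187 ± 6.20 CPM and passed in neither fit (edgeR adjusted p = 0.65 and 0.42).

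In the chain from receptor to ERK, 1 gene of 23 passed without the block. Gab1, an adaptor that carries signals of EGFR and ERBB3 to PI3K and SHP2, had 28.7, 28.3 and 28.4 CPM with DMSO and 23.1, 22.3 and 21.7 with INT-777 on days 1, 2 and 3. The groups were far apart beside their spread, and the fall was of 0.35 ± 0.06 on the log2 scale (edgeR adjusted p = 0.0316). The list median was 0.0012, and with the block 2 were higher and 1 lower, against the same 11.1% and 10.3% of all genes. The PI3K and AKT list had none of 18 called without the block, 1 higher and 3 lower with it (11.1% and 10.3% of all genes), and a median of 0.0098. Its members of smallest p were the regulatory subunit Pik3r1 (127.5 ± 4.15 and 104.9 ± 8.09 CPM, log2 -0.28 ± 0.07, edgeR adjusted p = 0.101), the transcription factor Foxo3 (log2 -0.18 ± 0.05, edgeR adjusted p = 0.15) and the kinase Akt2 (log2 0.19 ± 0.06, edgeR adjusted p = 0.196), and all 3 passed with the block. Among 14 other effectors none passed without the block and 1 was higher with it, against 11.1% of all genes. The smallest p values there were those of the kinases Prkca (log2 -0.11 ± 0.05, edgeR adjusted p = 0.31) and Jak1 (-0.11 ± 0.05, edgeR adjusted p = 0.317) and the adaptor Nck2 (-0.10 ± 0.05, edgeR adjusted p = 0.323).

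Transcripts that respond to ERK were the list with most calls. Of 22 tested of 24, 5 were higher and none lower without the block, where 0.688% and 0.763% of all genes were. With the block 13 were higher and none lower, against 11.1% and 10.3% of all genes, and the median log2 change without it was 0.28. The 5 were the transcription factor genes Egr1 (log2 2.32 ± 0.15), Fos (0.70 ± 0.07) and Junb (0.33 ± 0.06), the ERK phosphatase gene Dusp5 (0.65 ± 0.10) and Phlda1 (0.42 ± 0.07). All 5 were known to be higher in these libraries when the list was drawn up, so that it is no independent evidence of direction. Whether ERK signalling or another route lay behind these values was not tested. The 3 negative values in the list were those of Spry1, Spred2 and Etv5 (-0.19, -0.02 and -0.10), named after their values were seen.

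**Figure D4:**
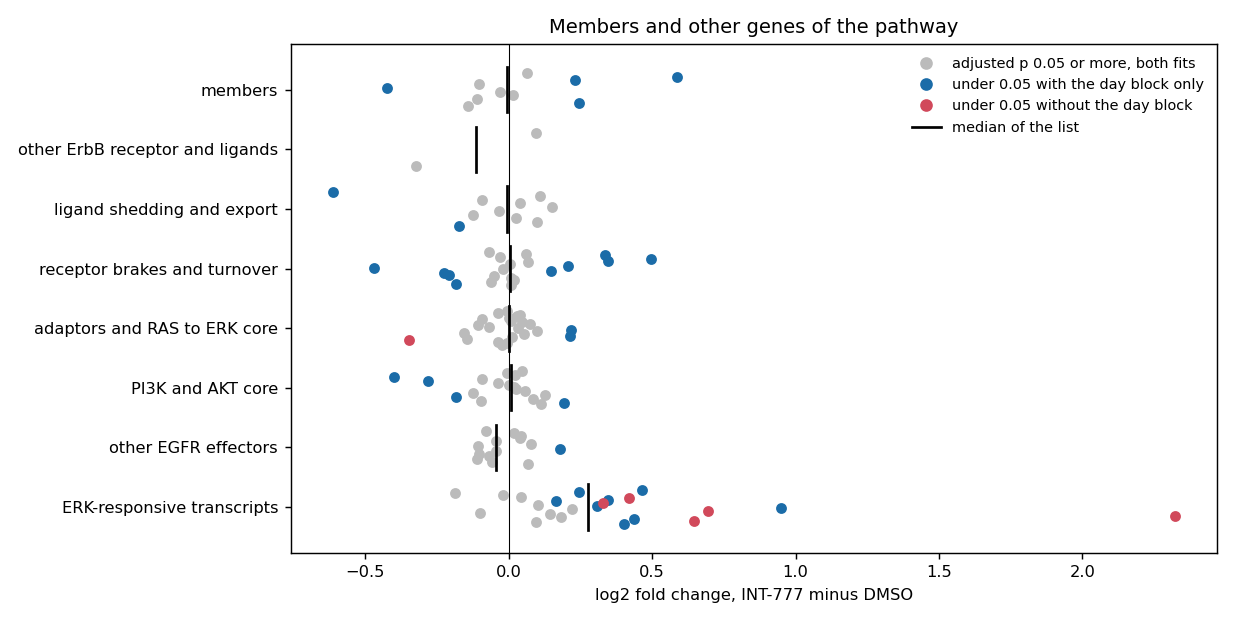
Log2 fold change without the day block for the 10 members and for the tested genes of 7 pathway lists, with each list's median as a black line and colours for the fit in which a gene passed. ERK-responsive transcripts lie mostly right of 0, with a median of 0.28, and Gab1 is the single gene called without the block in the other lists.

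Part of the spread in the members followed the day. In the model of day and treatment, 3 of the 10 differed between days (edgeR F-test of the day terms, adjusted p under 0.05), against 20.5% of all tested genes: Erbb3 (edgeR adjusted p = 0.0164), Hbegf (0.0191) and Errfi1 (0.0312). With DMSO, Erbb3 was 1.32-fold higher on day 3 than the mean of days 1 and 2, and Hbegf and Errfi1 were 1.42- and 1.26-fold lower. With INT-777 the corresponding values were 1.083-fold higher, and 1.12- and 1.07-fold lower. These are among the 4 genes that passed with the block, and in all 4 the DMSO library of day 3 was the farthest of the 6 from the INT-777 group. Summed goblet and enteroendocrine marker levels were highest in that same library, the latter at 2695 CPM, with 2133 in INT-777 of day 3 and 587 to 632.7 on days 1 and 2. All 8 goblet markers had negative log2 changes with INT-777, and 7 were lower with the block. All 7 Paneth markers were negative too, and 4 of them were lower with the block. Of 8 stem cell markers 6 were negative, and with the block 5 were lower and 1 higher. Of 8 enteroendocrine markers 6 were negative, and 3 were lower with the block. Epithelial markers went mostly the other way, with 5 of 6 positive, and with the block 3 were higher and 1 lower. Of 5 tuft markers tested 4 were positive, and 1 was higher with the block. Enterocyte markers were mixed, with 3 positive and 4 negative, and with the block 1 was higher and 3 were lower. Over all 15998 tested genes, 7892 were negative, and with the block 10.3% were lower and 11.1% higher. The RNA integrity number was also lowest in the DMSO library of day 3, at 8.7, against 9.0 to 9.6 in the other libraries. With that number as a covariate in place of the day, the log2 changes were 0.64 for Hbegf, 0.27 for Btc, 0.27 for Errfi1 and -0.44 for Erbb3. The part of other cell types in the members' values was not tested. Without both libraries of day 3 the log2 changes were 0.48 for Hbegf, 0.15 for Btc, 0.15 for Errfi1 and -0.32 for Erbb3, and the goblet sum was lower with INT-777 on those days too, at 3001 and 2901 CPM against 5661 and 5565 with DMSO.

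The transcripts whose levels over the 6 libraries were most like those of Hbegf, among 11012 named genes that averaged a log2 CPM of 1 or more, were Nob1, Pim1 and Cct2 (Pearson r of 0.9996, 0.9985 and 0.9981, a description without a test). For Erbb3 they were Tacc2, Sema4g and Tacc1 (0.9976, 0.9975 and 0.9958). The 6 points share days and treatments, and with so few points many genes reach values near 1. None of these 6 genes passed the test without the block.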

How the data were processed

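Each of the 6 deposited tables gives unnormalised gene counts as whole numbers, in the layout STAR writes. Per the submitters' processing notes, FastQC, STAR 2.73a and edgeR 3.24.3 were used, with the builds GRCm38 and mm10 named and no annotation release. Unstranded counts were used: the first strand held 50.1 to 50.6% of the stranded sum. Of 54838 gene IDs, 54809 matched GENCODE M21, which gave symbols, positions and exon lengths; Hgs is carried by 2 overlapping models and was left out. Genes took 74.5 to 75.65% of read pairs, and the lines for unmapped (10.3 to 11.3%), multimapping (5.96 to 6.31%), no-feature (3.32 to 3.83%) and ambiguous pairs (4.35 to 4.54%) stayed out of library sizes.

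Tests used edgeR 4.0.16 under R 4.3.3 (filterByExpr, TMM, robust quasi-likelihood test, Benjamini-Hochberg over 15998 genes, threshold 0.05), with limma 3.58.1 and DESeq2 1.42.0 as alternatives. CPM are counts over TMM-scaled library size. FPKM are CPM per kb of merged exons. Each SE is the absolute log2 change divided by the root of its F statistic. The labels say that same-numbered libraries share a day, which is where the pairing comes from. Deviations from the group means correlated at 0.329, 0.369 and 0.632 within days 1, 2 and 3, but those of days 1 and 2 did so across the 2 days as well (0.363 and 0.336), so that only day 3 is told apart by the values. Libraries of a day come from 1 pool of mice.

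Named genes are the members, the called genes of each list or else its 3 of smallest p, and 3 genes most like each of the 2 members of smallest p. Members and lists were chosen with earlier results of these data known. The tests were tested on simulated counts. Promoters are from RefSeq (GRCm38.p6). Figures were drawn with matplotlib 3.10.9 in Python 3.11.15.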

Additional observations from a re-analysis of the deposited data

How the results depend on the processing

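The number of calls moved with how the days were handled. With the replicate block, 1770 genes were higher and 1645 lower instead of 110 and 122, and 3 members were higher and 1 lower instead of 0 and 0. DESeq2 without the block gave 369 and 429 genes and 1 and 1 members, and RNA integrity as a covariate 1153 and 883 genes and 3 and 1 members. No low-count filter gave 186 and 249 genes, an adjusted p under 0.1 gave 234 and 248, and days 1 and 2 summed gave 0 and 1, with no member called in these 3. Leaving out 1 library at a time gave 2 to 105 genes higher and 6 to 168 lower, and 0 to 1 members higher and 0 lower; the lowest counts came without INT-777 replicate 1 (2 and 6) and INT-777 replicate 2 (2 and 7), followed by DMSO replicate 1 (4 and 10) and DMSO replicate 2 (7 and 12). Without both libraries of day 1 the counts were 0 and 0, without day 2 they were 2 and 1, and without day 3 they were 2225 and 2067 with 3 members higher and 4 lower (edgeR). Each fit that left out libraries filtered the genes anew, so its counts are not shares of the 15998 genes.

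Alternatives with the replicate block were added after seeing the data. Leaving out day 1 gave 1691 genes higher and 1556 lower, leaving out day 2 gave 777 and 1163, and leaving out day 3 gave 1938 and 1915; days 1 and 2 summed gave 1275 and 1419, RLE scaling 1605 and 1751, and DESeq2 1112 and 1162. In each of these 6 fits Hbegf, Btc and Errfi1 were called higher and Erbb3 lower, which made 3 members higher and 1 lower, except that without day 3 Areg, Ereg and Egfr were lower too, 4 in all. For Epgn, leaving out 1 library gave -0.13 to 0.14 on the log2 scale. The sign turned for Epgn without DMSO replicate 3 (-0.05), without INT-777 replicate 2 (-0.13) and with days 1 and 2 summed (-0.01), and for Erbb2 without day 2 (0.01 with and without the block); none of these was called, and the cause was not tested. The number of members that differ between days was 3 in all 3 alternatives, among 3227 to 4140 genes. Depth limits Epgn, Nrg1 and Nrg2, with 1 to 15 read pairs per library.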

Other observations

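Hbegf and Erbb3 ranked the 6 libraries in exactly opposite order. From lowest to highest Hbegf, the libraries were DMSO of days 3, 2 and 1 and INT-777 of days 3, 1 and 2, with 17.8, 24.4, 26.2, 31.8, 35.4 and 35.5 CPM, and the Erbb3 values in the same libraries were 107.9, 83.7, 79.2, 71.0, 66.3 and 64.8 CPM. The opposite course was not particular to this pair. Pearson r of log2 CPM with Erbb3 over the 6 libraries was -0.997 for Hbegf, -0.974 for Btc and -0.968 for Errfi1. The pair was picked after the values were seen, and the 6 libraries share 3 days, so no test is given.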
